A study of Mus musculus with 17 samples.

Results

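Genes whose names end in Rik were examined for RNA polymerase II (Pol II) occupancy in mouse embryonic fibroblasts and for their response to knockdown of RPAP1. They were taken by name from a table of Pol II signal per gene. After 58 exact repeats among its 36230 lines were dropped, the table held 36172 genes, of which 2213 had a Rik name and 33959 did not. RPAP1 is an RNA polymerase II associated protein that has been linked to the Mediator complex, and the table sets cells with reduced RPAP1 beside control cells.

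Chromatin came from primary C57Bl/6 embryonic fibroblasts, with 3 lines pooled, grown in serum-containing DMEM and taken on day 3 after lentiviral infection under puromycin. The knockdown cells carried the hairpin shRPAP1 #5 and the control cells a non-targeting hairpin, called SCR here. Each chromatin was precipitated with the N-20 antibody to RPB1, which reads total Pol II, and with an antibody to RPB1 phosphorylated on serine 5 (Ser5P), the form that marks Pol II near gene starts. That gave 4 ChIP-seq libraries, shRPAP1 and SCR with each antibody, and each library has a promoter value and a gene body value per gene. The titles, the treatment and the hairpin fields of both shRPAP1 libraries name the knockdown, while their free-text descriptions name the SCR control. With 1 library per condition and antibody there is no replicate check, and no p-value is given. The pool represents 1 hairpin and 1 preparation of each kind. The input library and the 12 RNA-seq samples of the study were not analysed here.

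Rik names are placeholders from the RIKEN collection of mouse full-length cDNA clones. The first characters name the cDNA library, so a clone found in testis or in the early embryo carries that origin in its name, and the name is replaced once a gene is characterised. The collection is known for long non-coding RNAs, among them host genes that carry snoRNAs or miRNAs in their introns, as well as for small proteins, antisense transcripts and genes used late in spermatogenesis. A gene that a cell transcribes usually has Pol II at its promoter, with Ser5P high near the start and lower further into the body.

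The word uncharacterised fits most, but not all, of these names. Of the 2213 genes, 1524 were matched to RefSeq by symbol and 328 by synonym, which makes 1852 (83.7%), and 361 were not matched. Among the matched genes 1525 still carried a Rik name and 327 had been given another symbol, 279 of those as protein-coding genes. RefSeq classes 683 of the matched genes as protein-coding, 1117 as non-coding RNA and 52 as pseudogenes or other loci. The prefix pointed to a testis library in 961 genes, to an embryo or embryonic stem cell library in 160 and to other libraries in 1092.

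The promoter windows of 9 genes are printed from RefSeq on the genome build GRCm38.p6. They span 250 bases before to 50 after the annotated start, 5′ to 3′ on the gene's strand, and for the protein-coding genes only the 250 bases before the start are shown. Capitals mark the letters TATAAA (the TATA box), CCAAT (the CCAAT box) and GGGCGG (the core of the GC box bound by Sp1) on either strand. Of all 49614 RefSeq windows of this length, 18.1% hold TATAAA, 37.9% hold CCAAT and 23.5% hold GGGCGG. The first 3 belong to non-coding RNAs that host snoRNAs and rank among the highest Rik promoters, at chr11:62602627-62602926, plus strand, chr2:167062684-167062983, plus strand (named Zfas1 in RefSeq) and chr17:34952422-34952721, minus strand.
2410006H16Rik: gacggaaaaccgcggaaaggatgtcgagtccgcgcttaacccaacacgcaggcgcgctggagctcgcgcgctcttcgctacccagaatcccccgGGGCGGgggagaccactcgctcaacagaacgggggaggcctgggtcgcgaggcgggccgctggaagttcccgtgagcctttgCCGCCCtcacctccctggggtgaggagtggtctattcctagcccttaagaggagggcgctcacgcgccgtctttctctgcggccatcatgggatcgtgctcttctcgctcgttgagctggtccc
1500012F01Rik: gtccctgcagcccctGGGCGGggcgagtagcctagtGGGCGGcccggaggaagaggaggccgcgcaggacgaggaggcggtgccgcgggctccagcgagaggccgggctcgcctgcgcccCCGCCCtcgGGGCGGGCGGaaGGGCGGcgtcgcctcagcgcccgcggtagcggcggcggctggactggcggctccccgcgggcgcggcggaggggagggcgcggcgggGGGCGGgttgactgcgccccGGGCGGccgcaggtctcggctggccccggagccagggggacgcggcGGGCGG
1110038B12Rik: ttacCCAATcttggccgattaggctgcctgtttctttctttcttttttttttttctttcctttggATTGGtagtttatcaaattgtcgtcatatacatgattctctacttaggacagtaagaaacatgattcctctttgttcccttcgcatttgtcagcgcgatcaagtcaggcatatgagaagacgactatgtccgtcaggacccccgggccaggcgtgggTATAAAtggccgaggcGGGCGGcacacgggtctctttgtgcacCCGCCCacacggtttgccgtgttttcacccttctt

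The next 4 are shown for a small difference at high signal or for a low ratio. I830012O16Rik (Ifit3b, an interferon-induced gene, chr19:34607280-34607529, plus strand) had high signal and a small difference, while 3110045C21Rik (chr1:169969159-169969458, plus strand), 2310039H08Rik (chr17:46772385-46772634, plus strand) and 1810044D09Rik (chr6:91440737-91441036, plus strand) had some of the lowest ratios of shRPAP1 to SCR.
I830012O16Rik: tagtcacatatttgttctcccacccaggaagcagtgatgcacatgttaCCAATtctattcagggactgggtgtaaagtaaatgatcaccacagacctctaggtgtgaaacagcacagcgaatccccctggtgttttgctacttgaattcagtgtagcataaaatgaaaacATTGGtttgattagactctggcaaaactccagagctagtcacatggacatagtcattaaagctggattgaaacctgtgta
3110045C21Rik: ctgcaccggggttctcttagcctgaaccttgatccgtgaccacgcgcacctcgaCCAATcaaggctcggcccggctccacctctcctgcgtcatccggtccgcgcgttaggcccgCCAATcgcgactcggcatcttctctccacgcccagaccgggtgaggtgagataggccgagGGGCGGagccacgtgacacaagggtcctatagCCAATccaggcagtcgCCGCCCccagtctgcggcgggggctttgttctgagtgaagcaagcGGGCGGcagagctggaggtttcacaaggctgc
2310039H08Rik: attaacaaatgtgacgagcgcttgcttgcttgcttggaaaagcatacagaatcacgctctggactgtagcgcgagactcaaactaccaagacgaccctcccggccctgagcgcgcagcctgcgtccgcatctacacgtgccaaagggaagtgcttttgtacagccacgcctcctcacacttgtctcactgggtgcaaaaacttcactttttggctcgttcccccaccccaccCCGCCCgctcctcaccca
1810044D09Rik: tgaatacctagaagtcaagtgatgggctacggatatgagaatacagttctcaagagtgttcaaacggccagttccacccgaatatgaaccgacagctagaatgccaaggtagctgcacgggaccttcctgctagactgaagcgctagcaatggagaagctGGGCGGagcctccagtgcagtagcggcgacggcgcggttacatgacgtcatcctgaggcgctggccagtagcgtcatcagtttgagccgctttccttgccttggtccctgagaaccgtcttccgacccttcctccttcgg

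The last pair sets an occupied window beside an empty one. 1110019D14Rik (chr6:13871319-13871618, plus strand) shares its start region with a second Rik gene, and 1700109G15Rik (chr11:84720383-84720682, minus strand), which has a testis prefix, had no coverage at its promoter in any library and was chosen after its values were seen.
1110019D14Rik: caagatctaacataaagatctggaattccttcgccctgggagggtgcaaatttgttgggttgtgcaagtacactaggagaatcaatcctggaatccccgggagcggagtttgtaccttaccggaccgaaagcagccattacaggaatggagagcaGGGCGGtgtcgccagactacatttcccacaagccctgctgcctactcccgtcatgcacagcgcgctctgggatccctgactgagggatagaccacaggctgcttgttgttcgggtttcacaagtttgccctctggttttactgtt
1700109G15Rik: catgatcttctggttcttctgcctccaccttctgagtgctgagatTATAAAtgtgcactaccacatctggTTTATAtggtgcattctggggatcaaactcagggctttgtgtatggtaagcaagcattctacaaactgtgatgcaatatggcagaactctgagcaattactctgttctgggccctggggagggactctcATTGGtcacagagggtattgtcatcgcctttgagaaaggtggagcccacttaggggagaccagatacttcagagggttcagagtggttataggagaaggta

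The CpG ratio, which compares the CpG count of a window with that expected from its C and G content, was 0.959 for 2410006H16Rik, 0.946 for Zfas1 and 0.943 for 1110038B12Rik. It was 0.0781 for Ifit3b and 0.062 for 1700109G15Rik, whose window holds 2 TATAAA matches and no GGGCGG. The Zfas1 window holds 9 GGGCGG matches, and the 1110038B12Rik window has TATAAA 28 bases before the start. Overlapping matches were counted singly, and a match says only that these letters are present.

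Some Rik genes are hosts of known miRNAs, and 6 mature sequences are shown to identify the hosts described further on. They are from RefSeq on GRCm38.p6, and capitals mark the seed, bases 2 to 8. The first 4 lie in hosts with gene body signal in these cells (2610203C20Rik, named Mir100hg, for miR-100-5p and miR-125b-5p; 2010111I01Rik, named Aopep, for miR-27b-3p; C430049B03Rik for miR-322-5p). The last pair lie in hosts with little signal (4631405K08Rik, named Mir205hg, and C130071C03Rik). No seed is shared among the 6.
miR-100-5p (chr9:41531437-41531458, plus strand): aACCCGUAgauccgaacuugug
miR-125b-5p (chr9:41581940-41581961, plus strand): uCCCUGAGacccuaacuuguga
miR-27b-3p (chr13:63300760-63300780, plus strand): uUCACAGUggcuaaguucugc
miR-322-5p (chrX:53054306-53054327, minus strand): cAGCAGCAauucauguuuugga
miR-205-5p (chr1:193507503-193507524, minus strand): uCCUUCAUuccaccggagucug
miR-9-5p (chr13:83738821-83738843, plus strand): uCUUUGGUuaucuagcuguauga

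The fibroblast label was checked on Pol II over gene bodies. In the SCR libraries 7 of 8 fibroblast markers were above background with total Pol II and 8 of 8 with Ser5P, with SCR total Pol II signals of 24.4 to 966. Markers of epithelium (0 of 3), endothelium (0 of 2) and pluripotent cells (0 of 3) were at background. Of 3 blood markers, Ptprc and Cd3e were at background, and Cd68, a macrophage marker, had a total Pol II signal of 108 in shRPAP1 and 259.8 in SCR. The part of such cells in the results was not tested. Promoter values are whole multiples of a step of 0.721, within 0.0058, and a single 40-base read is worth about 28.8 units. The lowest value, 0.72, means no coverage. By that measure the total Pol II libraries held 71278 promoter reads in shRPAP1 and 129639 in SCR over all genes, and the Ser5P libraries 156208 in shRPAP1 and 290757 in SCR. The 2213 Rik promoters held 4033 of the total Pol II reads in shRPAP1 (5.66%) and 7031 in SCR (5.42%), and 8526 of the Ser5P reads in shRPAP1 (5.46%) and 16528 in SCR (5.68%). The promoter of Rpap1 itself had a total Pol II signal of 325 in shRPAP1 and 211 in SCR, but a hairpin acts on the mRNA, so this does not show depletion.

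Rik genes were occupied about as often as genes at large. A gene was called occupied when its SCR signal was above the 95th percentile of 1760 olfactory and vomeronasal receptor genes, which are silent in fibroblasts. At the promoter, 856 of 2213 Rik genes (38.7%) were occupied with total Pol II, beside 38.2% of all genes, and 951 (43.0%) with Ser5P, beside 43.0%. Over the gene body the counts were 760 (34.3%) with total Pol II, beside 36.1% of all genes, and 958 (43.3%) with Ser5P, beside 45.0%. Both antibodies called the same promoter in 757 genes (34.2%, beside 34.4% of all genes), and neither did in 1163 (52.6%, beside 53.1%). By the shRPAP1 libraries and their own percentiles, 536 promoters (24.2%, beside 24.5% of all genes) were occupied with total Pol II and 842 (38.0%, beside 38.7%) with Ser5P.

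Occupancy extended through promoter and body with both antibodies in 541 Rik genes (24.4%, beside 25.6% of all genes), and 969 (43.8%, beside 43.5%) were above background in none of the 4 SCR columns. Another 94 genes (4.25%) were occupied at the promoter but not over the body with either antibody, beside 3.4% of all genes, and 93 (4.2%, beside 3.67%) showed the reverse. The SCR threshold at the promoter, 29.57 with both antibodies, is the value of a single read, so an occupied promoter holds more than 1 read. In the SCR library with total Pol II, 1007 Rik promoters had no read, 350 had up to 1, 399 had more than 1 and fewer than 5, 406 had 5 to fewer than 20, 48 had 20 to fewer than 50 and 3 had 50 or more. With Ser5P, 972 had no read and 49 had 50 or more.

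**Figure D1:**
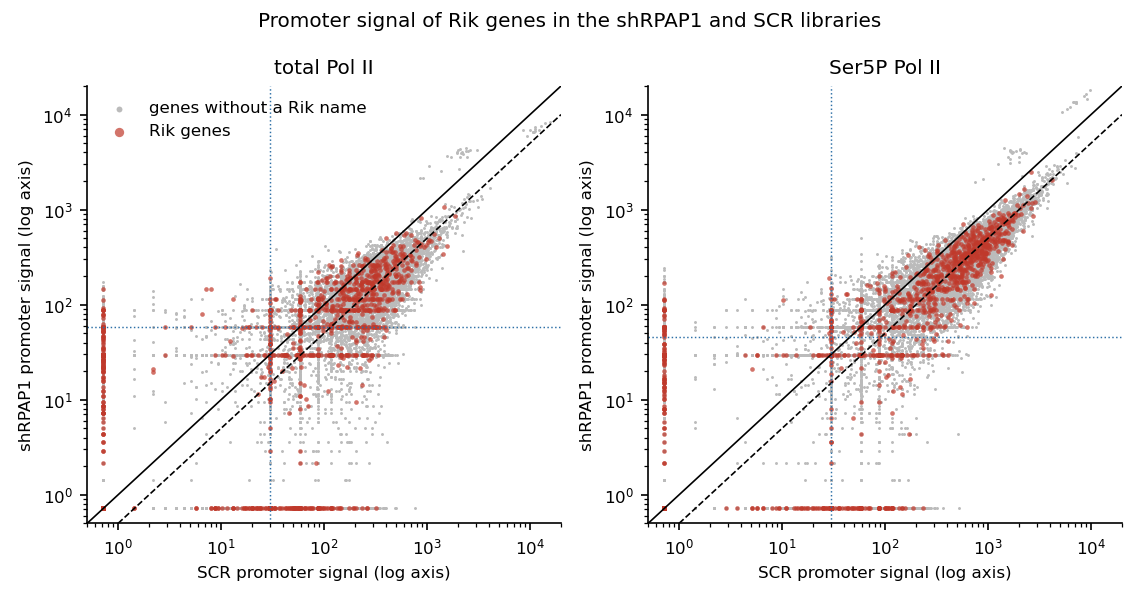
Promoter signal of each gene in shRPAP1 (vertical, log axis) against SCR (horizontal, log axis), with total Pol II on the left and Ser5P on the right. Red points are the 2213 Rik genes and grey points the other genes; the solid line marks equal signal, the dashed line 2-fold lower signal in shRPAP1, and the dotted lines the background percentiles. Most occupied Rik genes lie near the dashed line, within the range of the other genes, and the rows of points at low values are single reads.

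The prefix separated occupied from empty genes. Among genes from embryo or embryonic stem cell libraries, 96 of 160 promoters (60.0%) were occupied with total Pol II in SCR and 106 (66.2%) with Ser5P. Among genes from testis libraries the shares were 26.6% with total Pol II and 29.4% with Ser5P of 961 genes. The other libraries lay between them, at 46.2% and 51.5% of 1092 genes. The shRPAP1 libraries gave the same order of the 3 classes.

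The base composition of the promoter separated them further. Of 589 genes whose window had a CpG ratio of at least 0.6, 434 (73.7%) were occupied with total Pol II and 473 (80.3%) with Ser5P, against 23.1% and 26.0% of 1263 genes with a lower ratio. The difference between prefixes held within both classes. Among CpG-rich windows, 89.7% of 78 embryo genes and 70.2% of 181 testis genes were occupied with Ser5P, and among CpG-poor windows 42.4% of 66 embryo genes and 18.2% of 632 testis genes. Occupied promoters (644 with both antibodies and a window) had a median CpG ratio of 0.736, unoccupied ones (968 with neither) 0.235, and all RefSeq windows 0.282. GGGCGG was present in 56.2% of occupied and 17.1% of unoccupied windows. TATAAA was present in 7.14% of occupied and 15.2% of unoccupied windows, and CCAAT in 35.9% and 36.6%.

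**Figure D2:**
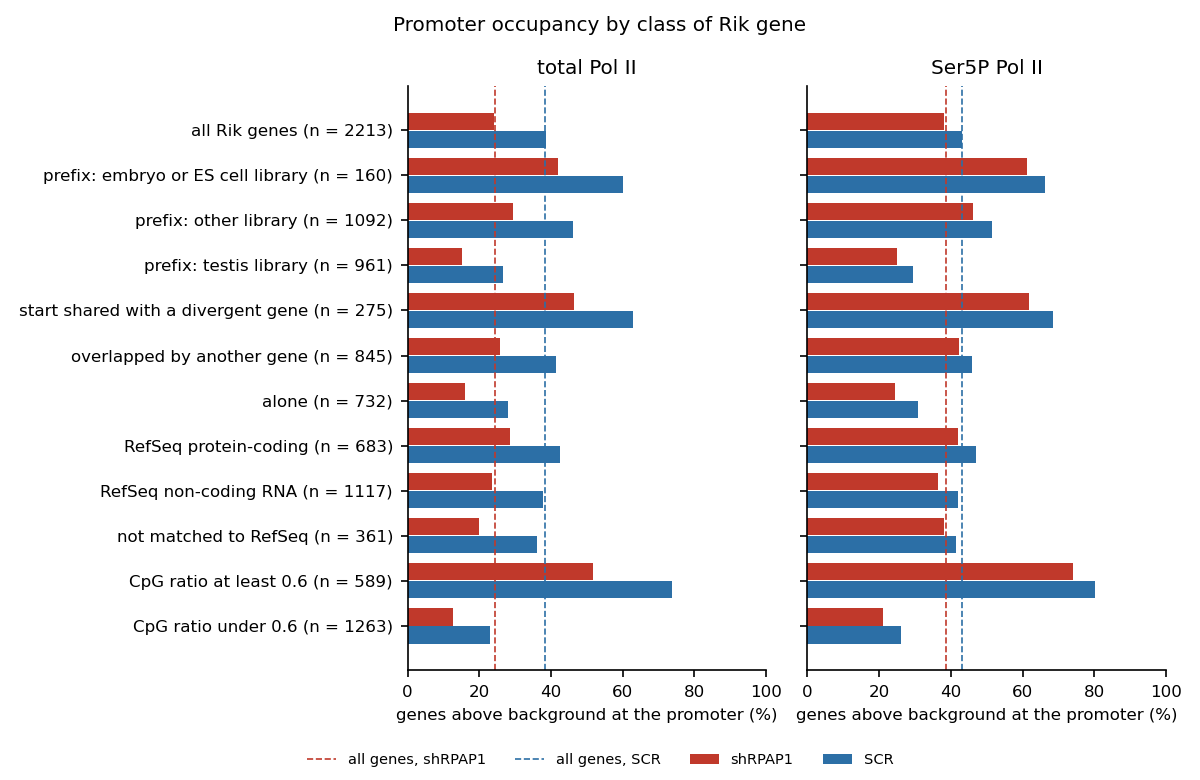
Share of Rik genes above background at the promoter (horizontal axis, %) in each class, with total Pol II on the left and Ser5P on the right. Red bars are shRPAP1, blue bars SCR, each by its own background percentile, and dashed lines give the share over all genes. Genes with CpG-rich promoters, shared start regions and embryo prefixes have the longest bars. Of the classes drawn, testis prefixes, genes labelled alone and CpG-poor promoters have the shortest.

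Differences between RefSeq classes were smaller, and those between positions were about as large as those between prefixes. Protein-coding Rik genes were occupied in 42.6% with total Pol II and 46.9% with Ser5P, against 51.3% and 56.2% of protein-coding genes without a Rik name. Non-coding Rik genes were occupied in 37.8% and 42.0%, against 30.2% and 36.3% of other non-coding genes. Genes whose start lies within 1000 bases of a start on the opposite strand, pointing away, were occupied most often, in 62.9% and 68.4% of 275. Genes overlapped by another gene followed at 41.3% and 46.0% of 845, and genes with neither neighbour came last at 27.9% and 30.7% of 732. ChIP signal carries no strand, so a gene with such a neighbour shares reads with it, and the parts of member and neighbour cannot be told apart. Among the 732 genes with neither, those with CpG-rich windows were occupied in 67.7% with total Pol II and 78.5% with Ser5P of 130, against 19.3% and 20.4% of 602 CpG-poor ones.

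A neighbour was in the table for 239 of the 275 genes with shared start regions, which made 226 distinct pairs, 13 of them of Rik genes on both sides, at a median distance of 107 bases. Both genes were occupied in 138 pairs with total Pol II and 157 with Ser5P, and neither in 47 and 41. In pairs with a neighbour of another name, the Rik gene alone was occupied in 18 with total Pol II and 11 with Ser5P, and the neighbour alone in 22 and 16. The SCR promoter signals of both sides had a Spearman rho of 0.64 with total Pol II and 0.70 with Ser5P over the 226 pairs, whose genes share reads. Where both genes were measured, both were at least 1.5-fold lower in shRPAP1 in 52 of 141 pairs with total Pol II and 94 of 165 with Ser5P. Of all measured genes taken singly, 69.2% were lower with total Pol II and 69.1% with Ser5P. Pairs of genes without a shared start were not counted, so whether neighbours respond together was not tested. The starts of 1110019D14Rik and 2610001J05Rik are 51 bases apart on chromosome 6. 1110019D14Rik had total Pol II of 470.2 in shRPAP1 and 1084 in SCR, and Ser5P of 912 in shRPAP1 and 1832 in SCR. 2610001J05Rik had total Pol II of 305 in shRPAP1 and 973 in SCR, and Ser5P of 631 in shRPAP1 and 1694 in SCR. Both genes of that pair had less signal in shRPAP1 with both antibodies. The start region of 3110045C21Rik is shared as well, and the neighbour 167 bases away is Hsd17b7, an enzyme of cholesterol synthesis and steroid metabolism, with Ser5P of 158 in shRPAP1 and 879 in SCR but total Pol II of 178 in shRPAP1 and 203 in SCR.

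Signal on Rik genes was lower in shRPAP1 than in SCR, by about as much as on all genes. For the genes above background in at least 1 library of an antibody, the ratio was taken on the scale of log2(signal + 0.72) at promoters and log2(signal + 0.33) over bodies. At the promoter the median log2 ratio was -0.97 with total Pol II over 887 Rik genes, beside -1.07 over all measured genes, and -0.97 with Ser5P over 1040 Rik genes, beside -0.97. Over the body it was -0.56 with total Pol II over 781 Rik genes, beside -0.56, and -0.65 with Ser5P over 999, beside -0.71. The 95% order-statistic intervals of the Rik medians, which cover no variation between libraries, were -1.04 to -0.89, -1.02 to -0.93, -0.62 to -0.49 and -0.69 to -0.61 in the same order.

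Counts past 1.5-fold followed the background. At the promoter, 564 Rik genes (63.6%) were at least 1.5-fold lower with total Pol II, beside 69.2% of all measured genes, and 73 (8.23%) at least 1.5-fold higher, beside 7.4%. With Ser5P 712 (68.5%) were lower, beside 69.1%, and 112 (10.8%) higher, beside 11.2%. Over the body 375 (48.0%) were lower with total Pol II, beside 47.7%, and 39 (4.99%) higher, beside 7.9%. With Ser5P 548 (54.9%) were lower, beside 58.5%, and 79 (7.91%) higher, beside 8.78%. With both antibodies at once, 374 of 792 Rik promoters (47.2%) were lower, beside 53.5% of all genes, and 3 (0.379%) higher, beside 1.14%. For bodies the counts were 289 of 750 (38.5%) lower, beside 39.8%, and 8 (1.07%) higher, beside 2.25%. Many higher calls were fixed by the filter, since a gene that passed it through shRPAP1 alone starts from a threshold 1.5-fold or more above that of SCR, or nearly so for total Pol II over bodies. Such genes made up 31 of the 73 higher promoters with total Pol II, 89 of the 112 with Ser5P, 20 of the 39 higher bodies with total Pol II and 41 of the 79 with Ser5P. Among genes occupied in SCR, 42 promoters (4.91%, beside 3.46% of all such genes) were higher with total Pol II and 23 (2.42%, beside 2.87%) with Ser5P. For bodies the counts were 19 (2.5%, beside 2.43%) and 38 (3.97%, beside 3.41%).

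These directions rest on the deposited scale, whose normalization between libraries is not given. The silent receptor genes had more mean signal in shRPAP1 than in SCR. With total Pol II it was 13.97 in shRPAP1 and 7.99 in SCR at the promoter and 12.5 in shRPAP1 and 7.08 in SCR over the body. With Ser5P it was 10.1 in shRPAP1 and 6.705 in SCR at the promoter and 10.0 in shRPAP1 and 5.75 in SCR over the body. With the median ratio of all measured genes set to 1, 28.9% of Rik promoters were lower and 32.6% higher with total Pol II, and 25.1% lower and 24.1% higher with Ser5P. Over bodies on that scale 15.7% were lower and 16.3% higher with total Pol II, and 13.9% lower and 18.1% higher with Ser5P. With the receptor genes set equal instead, 85.8% of Rik promoters were lower with total Pol II and 84.1% with Ser5P, and 89.1% and 88.8% of bodies. The Rik medians stood within 0.12 log2 units of the all-gene medians on all 3 scales. Rescaling shifts Rik genes and all genes nearly alike, so this closeness could hardly change and is not a separate check.

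**Figure D3:**
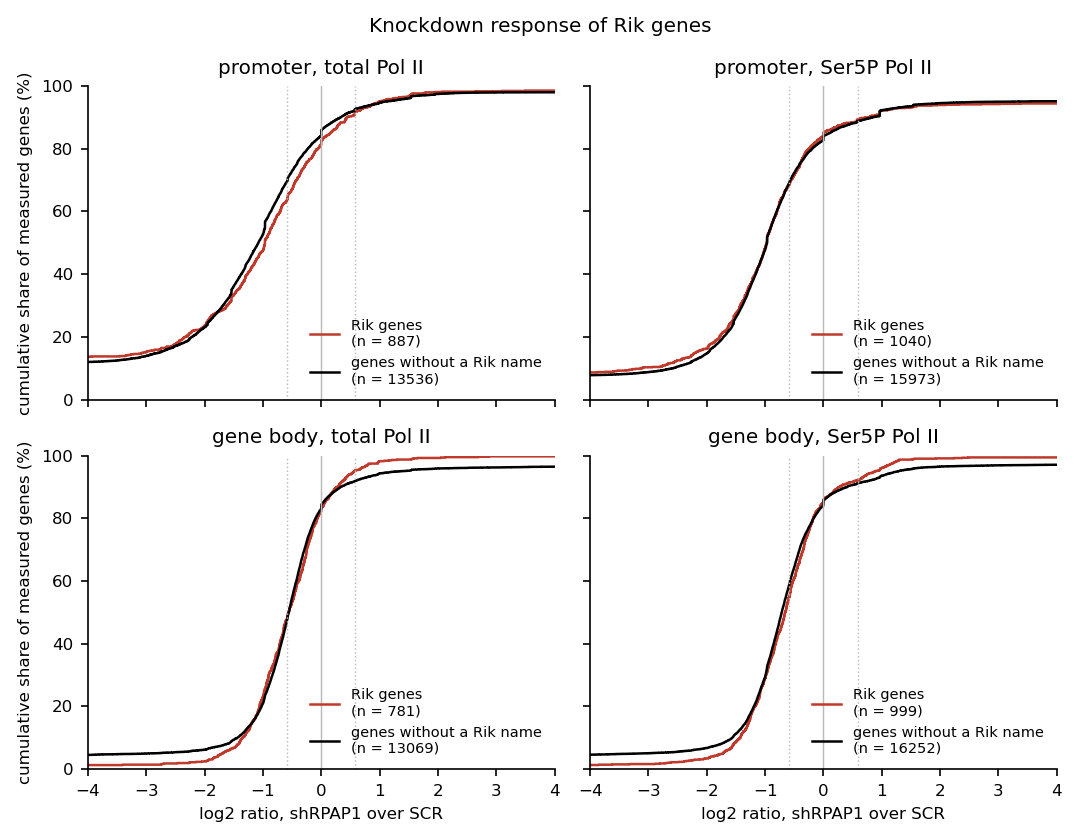
Cumulative share of measured genes (vertical axis, %) against the log2 ratio of shRPAP1 over SCR (horizontal axis), for promoters above and gene bodies below, with total Pol II on the left and Ser5P on the right. Red curves are Rik genes and black curves the other genes, the solid vertical line marks no difference and dotted lines 1.5-fold; the curves lie close together, with medians of -0.97, -0.97, -0.56 and -0.65 for the Rik genes.

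Few of these genes have enough reads to be read singly. The exact 95% interval of the ratio, which covers counting error only, lay below 0 on the log2 scale at 111 of 887 Rik promoters (12.5%) with total Pol II, beside 14.9% of all genes, and above 0 at none, beside 0.194%. With Ser5P it lay below 0 at 274 of 1040 (26.3%), beside 28.1%, and above 0 at 1, beside 0.3%. Body intervals are approximate, since the window behind their read counts matched only 27.5% of 1001 bodies without coverage. RefSeq lengths also allowed body read counts for fewer genes. Over bodies the interval lay below 0 at 239 of 626 (38.2%) with total Pol II, beside 51.2%, and above 0 at 25 (3.99%), beside 2.8%. With Ser5P it lay below 0 at 367 of 816 (45.0%), beside 60.0%, and above 0 at 59 (7.23%), beside 4.15%. Of all Rik genes, 304 promoters (13.7%) stood above 2 times the background percentile in all 4 libraries. Of these 248 (81.6%) had lower signal in shRPAP1 with both antibodies, beside 83.2% of all such genes, and 5 (1.64%) higher, beside 1.59%. The same rule kept 124 gene bodies, of which 117 (94.4%) were lower with both antibodies, beside 88.3%, and 1 (0.806%) higher, beside 4.65%.

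The ratio varied with level over the body more than at the promoter. When Rik genes were ranked by their SCR signal with the other antibody, the 50 highest promoters had a median log2 ratio of -1.0 with Ser5P, beside -1.01 for all genes in that range of signal, and ranks 401 to 800 one of -0.86, beside -0.87. For total Pol II over the body the 50 highest genes had a median of -1.06, beside -1.12, and ranks 401 to 800 one of -0.25, beside -0.33. For total Pol II at promoters these medians were -1.04, beside -1.12, and -0.78, beside -0.92. For Ser5P over the body they were -1.12, beside -1.23, and -0.44, beside -0.52. No background filter was applied to the ranks. Ranks 401 to 800 for body total Pol II reached down to SCR Ser5P of 27.7, near the percentile of 20.33. The share of genes at least 1.5-fold lower at the promoter with Ser5P was 92.0% in the top 50, beside 86.7% of all genes in that range, and 59.0% in ranks 401 to 800, beside 60.3%.

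Higher ratios were split by prefix after the values were seen, within the genes occupied in SCR. With Ser5P over bodies, 26 of 300 such genes with a testis prefix (8.67%) were at least 1.5-fold higher, beside 3.41% of all genes occupied in SCR, and so were 1 of 93 with an embryo prefix (1.08%) and 11 of 565 others (1.95%). With total Pol II over bodies the counts were 11 of 241 (4.56%) with a testis prefix, 1 of 69 (1.45%) with an embryo prefix and 7 of 450 others (1.56%), beside 2.43%. At promoters the testis share with Ser5P was 2.47%, beside 2.87% of all genes. Of all 54 testis genes counted higher with Ser5P over the body, 28 had passed the filter through shRPAP1 alone. With the receptor genes set equal between libraries, that count of 54 became 10 of 328 (3.05%, beside 4.46% of all genes). Samt1b (4921511M17Rik), from a multicopy X-linked family of membrane proteins of spermatogenesis, had gene body Ser5P of 86.8 in shRPAP1 and 37.2 in SCR and total Pol II of 72.7 in shRPAP1 and 42.6 in SCR, and its copies may share reads. The Samt1b promoter had no coverage with total Pol II in either condition. With Ser5P it had 0.72 in shRPAP1 and 58.42 in SCR, the latter about 2 reads.

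The highest Rik promoter was that of 2410006H16Rik, a non-coding RNA on chromosome 11 that holds Snord49b, Snord49a and Snord65 within 1930 bases. Its total Pol II signal was 866 in shRPAP1 and 1867 in SCR, a log2 ratio of -1.11 with a counting interval of -1.79 to -0.47. Its Ser5P signal was 2047 in shRPAP1 and 4135 in SCR (-1.01, interval -1.44 to -0.59). It was lower in shRPAP1 over the body as well, with total Pol II of 223 in shRPAP1 and 608 in SCR and Ser5P of 467 in shRPAP1 and 961 in SCR. Zfas1 is a non-coding RNA that hosts Snord12 and overlaps Znfx1 on the opposite strand, so it shares reads with that gene. Its promoter had total Pol II of 401 in shRPAP1 and 1216 in SCR and Ser5P of 1375 in shRPAP1 and 2417 in SCR. Over its body total Pol II was 379.8 in shRPAP1 and 907 in SCR, and Ser5P was 783 in shRPAP1 and 1597 in SCR. All 4 of its values were lower in shRPAP1, and it was among the highest Rik genes in both regions.

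1110038B12Rik, the host of Snord52 on chromosome 17, had promoter total Pol II of 557 in shRPAP1 and 1165 in SCR and Ser5P of 1164 in shRPAP1 and 2449.9 in SCR. Its body ratios were -1.23 with total Pol II and -1.45 with Ser5P. 2410002F23Rik on chromosome 7, which holds Snord88a and Snord88c, had promoter total Pol II of 407 in shRPAP1 and 940.5 in SCR (log2 ratio -1.21) and Ser5P of 1644 in shRPAP1 and 2241.5 in SCR (-0.45). Its counting intervals, -2.25 to -0.3 with total Pol II and -0.97 to 0.06 with Ser5P, overlapped, and the Ser5P interval held 0.

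Ifit3b stood apart among the high promoters. Its total Pol II signal was 1066 in shRPAP1 and 1448 in SCR (log2 ratio -0.44), and its Ser5P signal was 2519 in shRPAP1 and 2602 in SCR (-0.05). The gene is a tetratricopeptide-repeat protein induced by interferon, it has close paralogs in the Ifit cluster on chromosome 19, and reads may be divided among them. Its body Ser5P was 397 in shRPAP1 and 498 in SCR.

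At Dglucy (9030617O03Rik), which encodes an enzyme that acts on D-glutamate, promoter and body differed. The promoter had total Pol II of 339 in shRPAP1 and 1414 in SCR (log2 ratio -2.06) and Ser5P of 1042 in shRPAP1 and 2589 in SCR (-1.31). The body, low in both conditions, had total Pol II of 30.3 in shRPAP1 and 33.5 in SCR and Ser5P of 29.6 in shRPAP1 and 37.2 in SCR. Both shRPAP1 values lie under the background percentiles of 37.32 and 31.21 in those libraries. At 4931406C07Rik, a protein-coding gene that overlaps Taf1d, the promoter log2 ratios were -1.0 with total Pol II and -1.20 with Ser5P. Its body ratios were -0.03 and -0.33, but its body total Pol II was under background, at 24.95 in shRPAP1 and 25.52 in SCR. The percentiles are 37.32 in shRPAP1 and 25.85 in SCR, so that body was not measured with total Pol II. The remaining members of the 10 highest promoters, 4933406P04Rik, 2210015D19Rik (Ube2d-ps) and 3110045C21Rik, had lower signal in shRPAP1 with both antibodies at the promoter. 4933406P04Rik was not matched to RefSeq, so its position and its overlaps are not given.

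**Figure D4:**
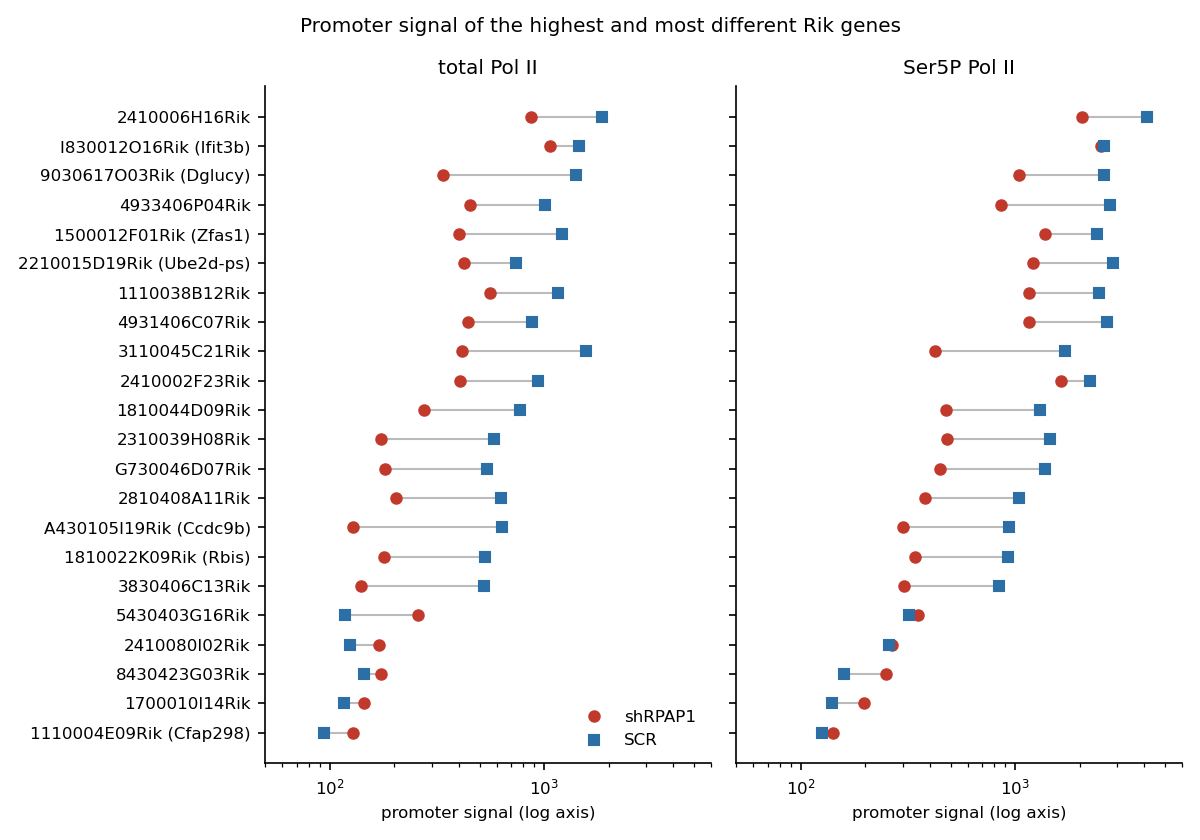
Promoter signal (horizontal log axis) of the 10 highest Rik promoters and of those with the lowest and highest ratios, with total Pol II on the left and Ser5P on the right. Red circles are shRPAP1 and blue squares SCR, 1 library each, joined by a line; circles lie left of squares for all genes but the 5 at the bottom, and at Ifit3b with Ser5P they nearly coincide.

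Ranked by the ratio nearer to 0 of the pair of antibodies, the lowest promoter ratios were those of 3110045C21Rik, a non-coding gene on chromosome 1. Total Pol II was 414 in shRPAP1 and 1559 in SCR, a log2 ratio of -1.91 with an interval of -2.91 to -1.08. Ser5P was 425 in shRPAP1 and 1701 in SCR (-2.0, interval -2.90 to -1.14). Ddr2 overlaps 3110045C21Rik and Hsd17b7 shares its start region, so their reads may be counted here. Ccdc9b (A430105I19Rik), a coiled-coil protein gene on chromosome 2, had total Pol II of 128 in shRPAP1 and 634 in SCR and Ser5P of 300.02 in shRPAP1 and 938 in SCR. 2310039H08Rik, a protein-coding gene of 773 bases on chromosome 17, had promoter total Pol II of 174 in shRPAP1 and 586 in SCR and Ser5P of 481 in shRPAP1 and 1459.7 in SCR. Its body had total Pol II of 164 in shRPAP1 and 598 in SCR and Ser5P of 301 in shRPAP1 and 1093 in SCR, with log2 ratios of -1.86 with both antibodies. 2310039H08Rik was among the lowest ratios in both regions. Its counting intervals lay below 0 in all 4 comparisons, those of the body being approximate. Rbis (1810022K09Rik), a ribosomal biogenesis factor, had promoter ratios of -1.57 with total Pol II and -1.44 with Ser5P and smaller body ratios of -0.43 and -0.28. E2f5 overlaps Rbis.

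Among the 304 promoters above 2 times the background percentile in all 4 libraries, 5 were higher in shRPAP1 with both antibodies, at modest signal, and no counting interval of theirs lay above 0 at the promoter. 1700010I14Rik had total Pol II of 145 in shRPAP1 and 116 in SCR and Ser5P of 196 in shRPAP1 and 139.9 in SCR. 8430423G03Rik had total Pol II of 174 in shRPAP1 and 145 in SCR and Ser5P of 249 in shRPAP1 and 159 in SCR. 5430403G16Rik had total Pol II of 257 in shRPAP1 and 118 in SCR and Ser5P of 350.5 in shRPAP1 and 318 in SCR. The others were Cfap298 (1110004E09Rik), a gene for motile cilia, and 2410080I02Rik. Over the 124 bodies that passed the same rule, 2510046G10Rik alone was higher with both antibodies, with log2 ratios of 0.06 with total Pol II and 0.13 with Ser5P. No promoter stood above 2 times the background percentile in both shRPAP1 libraries with no coverage in both SCR libraries. The reverse held for 2 promoters, 4921507L20Rik (Alkbh3os1, an antisense transcript at the DNA repair gene Alkbh3) and 1700056N10Rik. Alkbh3os1 had SCR signals of 116 with each antibody, and 1700056N10Rik had 116 and 136, each about 4 or 5 reads. The counting intervals of both promoters reached above 0 with each antibody, and the bar was lower in SCR than in shRPAP1. The percentile was 29.57 in SCR with both antibodies, and 58.42 with total Pol II and 45.58 with Ser5P in shRPAP1. No share over all genes is given for either count.

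Over gene bodies the highest SCR signals, by the mean of both antibodies, belonged to G730046D07Rik, Zfas1 and 4930442H23Rik. With total Pol II alone B930036N10Rik, not matched to RefSeq, was higher than these, at 1089 in SCR. G730046D07Rik had total Pol II of 239 in shRPAP1 and 815 in SCR and Ser5P of 759 in shRPAP1 and 1816 in SCR. 4930442H23Rik had total Pol II of 355 in shRPAP1 and 749 in SCR and Ser5P of 481 in shRPAP1 and 1532 in SCR, while its promoter was low, with Ser5P of 116 in shRPAP1 and 219.97 in SCR. A130006I12Rik had the lowest body ratio of the 10 with Ser5P, at 309 in shRPAP1 and 1624 in SCR (log2 ratio -2.39), and at -1.55 with total Pol II. G730046D07Rik, 4930442H23Rik and A130006I12Rik were not matched to RefSeq, so whether another gene overlaps them was not tested. The pseudogene loci 6820431F20Rik and 2610005L07Rik, both on chromosome 8, had nearly equal bodies. Total Pol II over 6820431F20Rik was 248 in shRPAP1 and 340.3 in SCR and over 2610005L07Rik it was 233 in shRPAP1 and 319.5 in SCR, so reads may have been divided between similar copies.

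Among genes that RefSeq has since described, 7 have mitochondrial roles by the words of their descriptions. All 7 promoters were occupied in SCR with total Pol II, beside 38.2% of all genes, and 6 with Ser5P, beside 43.0%. In shRPAP1, 6 of 7 measured were at least 1.5-fold lower with total Pol II, beside 69.2% of all measured genes, and 6 of 6 with Ser5P, beside 69.1%, and none was higher. The median log2 ratio was -0.99 with total Pol II and -1.34 with Ser5P, beside -1.07 and -0.97 over all genes. Over bodies 3 of 7 were lower with total Pol II (median -0.42, beside -0.56) and 6 of 7 with Ser5P (median -1.13, beside -0.71). Micos13 (2410015M20Rik), a subunit of the complex that shapes inner-membrane cristae, had promoter Ser5P of 306 in shRPAP1 and 1385 in SCR and total Pol II of 243 in shRPAP1 and 394 in SCR, and it shares its start region with Rpl36. Ndufaf8 (1810043H04Rik), an assembly factor of respiratory complex I, had total Pol II of 29.6 in shRPAP1 and 263 in SCR and Ser5P of 138 in shRPAP1 and 394.5 in SCR. Timm29 (1810026J23Rik), of the carrier translocase of the inner membrane, had Ser5P of 395 in shRPAP1 and 865 in SCR. All 3 were lower in shRPAP1 with both antibodies. Ndufaf8 shares its start region with Tepsin, and Yipf2 overlaps Timm29.

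Genes described by RNA binding, tRNA or ribosome numbered 8, of which 5 promoters were occupied with total Pol II and 6 with Ser5P, beside 38.2% and 43.0% of all genes. With total Pol II, 4 of 5 measured were at least 1.5-fold lower and 1 was higher, beside 69.2% and 7.4% of all genes. With Ser5P, 3 of 7 were lower and 1 higher, beside 69.1% and 11.2%. The gene higher with Ser5P, Rbm8a2 (B020018G12Rik), passed the filter through shRPAP1 alone, at 87.27 in shRPAP1 and 29.57 in SCR. Khdc4 (2810403A07Rik), which encodes a KH-domain RNA-binding protein linked to splicing, had promoter Ser5P of 627 in shRPAP1 and 925 in SCR. Genes described by cilia, centrosome, flagellum or sperm numbered 24, and 12 were occupied with each antibody. Of these 7 of 13 measured were lower and 3 higher with total Pol II, and 8 of 12 lower and 1 higher with Ser5P. The shares of all genes beside them are those given for the RNA group. Among the genes higher with total Pol II, Iftap (B230118H07Rik) passed the filter through shRPAP1 alone, at 87.27 in shRPAP1 and 20.19 in SCR.

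Antisense transcripts numbered 15, of which 9 promoters were occupied with each antibody, beside 38.2% and 43.0% of all genes. Of the 9 measured, 7 were lower and 1 higher with total Pol II, beside 69.2% and 7.4%, and 8 were lower and none higher with Ser5P, beside 69.1% and 11.2%. Zbtb11os1 (2310061J03Rik) had gene body Ser5P of 330.2 in shRPAP1 and 768 in SCR, in a span that Zbtb11 overlaps. Oip5os1 (1700020I14Rik) is a conserved long non-coding RNA known for directing the decay of miR-7. Its promoter had total Pol II of 251 in shRPAP1 and 116 in SCR, and Ser5P of 338 in shRPAP1 and 706 in SCR. These ratios had opposite signs, but their counting intervals, -0.67 to 3.32 and -2.13 to 0.06, both held 0. Over its body the log2 ratios were -0.4 with total Pol II and -0.74 with Ser5P.

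Rik genes that hold a snoRNA gene on their own strand numbered 16, a set drawn up after the values were seen. Of their promoters 11 (68.8%) were occupied with each antibody, beside 75.7% and 79.9% of 259 such host genes in the whole table. Over the body 11 were occupied with total Pol II and 12 with Ser5P. Of 12 bodies measured with Ser5P, 11 were past 1.5-fold in the lower direction, beside 150 of 205 bodies of all snoRNA hosts and 58.5% of all genes, and 1 in the higher. Their median log2 ratio was -1.22, beside -0.99 over all snoRNA hosts. Snhg16 (1810032O08Rik), which holds Snord1a, Snord1b and Snord1c, had body Ser5P of 105 in shRPAP1 and 257 in SCR. Epb41l4aos (2410004N09Rik) had promoter Ser5P of 899 in shRPAP1 and 2108 in SCR and total Pol II of 260.35 in shRPAP1 and 783 in SCR. The hosts with low body signal, such as D430041D05Rik and 6530403H02Rik, include long genes, of 268798 and 432399 bases.

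Hosts of miRNA genes numbered 25. Of their promoters 12 (48.0%) were occupied with total Pol II, beside 68.3% of 628 miRNA hosts in the whole table and 38.2% of all genes. With Ser5P 15 (60.0%) were, beside 75.6% and 43.0%. Over the body 12 (48.0%) were occupied with total Pol II, beside 59.6% of all miRNA hosts and 36.1% of all genes. With Ser5P 16 bodies (64.0%) were, beside 74.8% and 45.0%. With Ser5P over the body 10 of 16 measured were at least 1.5-fold lower and none higher, beside 334 of 472 lower among all miRNA hosts and 58.5% of all genes. Mir100hg, which carries miR-100, let-7a-2 and miR-125b-1, had body Ser5P of 80.9 in shRPAP1 and 173 in SCR and total Pol II of 77.2 in shRPAP1 and 169.8 in SCR (2610203C20Rik in the table). Aopep (2010111I01Rik), an aminopeptidase gene with the miR-23b, miR-27b and miR-24-1 genes inside it, had body Ser5P of 59.3 in shRPAP1 and 136 in SCR. C430049B03Rik on the X chromosome, the host of miR-322, miR-503 and miR-351, had promoter Ser5P of 145 in shRPAP1 and 263 in SCR and body Ser5P of 31.1 in shRPAP1 and 67.3 in SCR. These 3 hosts were occupied over the body in SCR and lower in shRPAP1.

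Some hosts of miRNAs known from epithelium or brain were under background over the body. Those described first were picked after their values were seen. Mir205hg (4631405K08Rik), whose miR-205 is known from epithelia, had body Ser5P of 13.6 in shRPAP1 and 3.7 in SCR. C130071C03Rik, with miR-9-2, had 15.2 in shRPAP1 and 9.37 in SCR, and Mir124a-1hg (A930011O12Rik), with the neuronal miR-124, had 8.01 in shRPAP1 and 3.05 in SCR. All of these values lie under the 95th percentile of the receptor genes, 31.21 in shRPAP1 and 20.33 in SCR. Other miRNA hosts stood above it in SCR. Hoatz (4833427G06Rik), with miR-34b and miR-34c, had body Ser5P of 39.1 in shRPAP1 and 57.4 in SCR. D030055H07Rik, with miR-135a-1, had 26.8 in shRPAP1 and 41.3 in SCR. F630028O10Rik, the host of miR-223, a miRNA of myeloid cells, had body total Pol II of 22.4 in shRPAP1 and 50.3 in SCR and Ser5P of 11.2 in shRPAP1 and 30.8 in SCR. Its body stood above background in SCR with both antibodies, as did that of Cd68, while the blood markers Ptprc and Cd3e did not. Its promoter was at 29.57 in SCR with both antibodies, which is the threshold and not above it. Whether blood cells had a part in this was not tested.

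**Figure D5:**
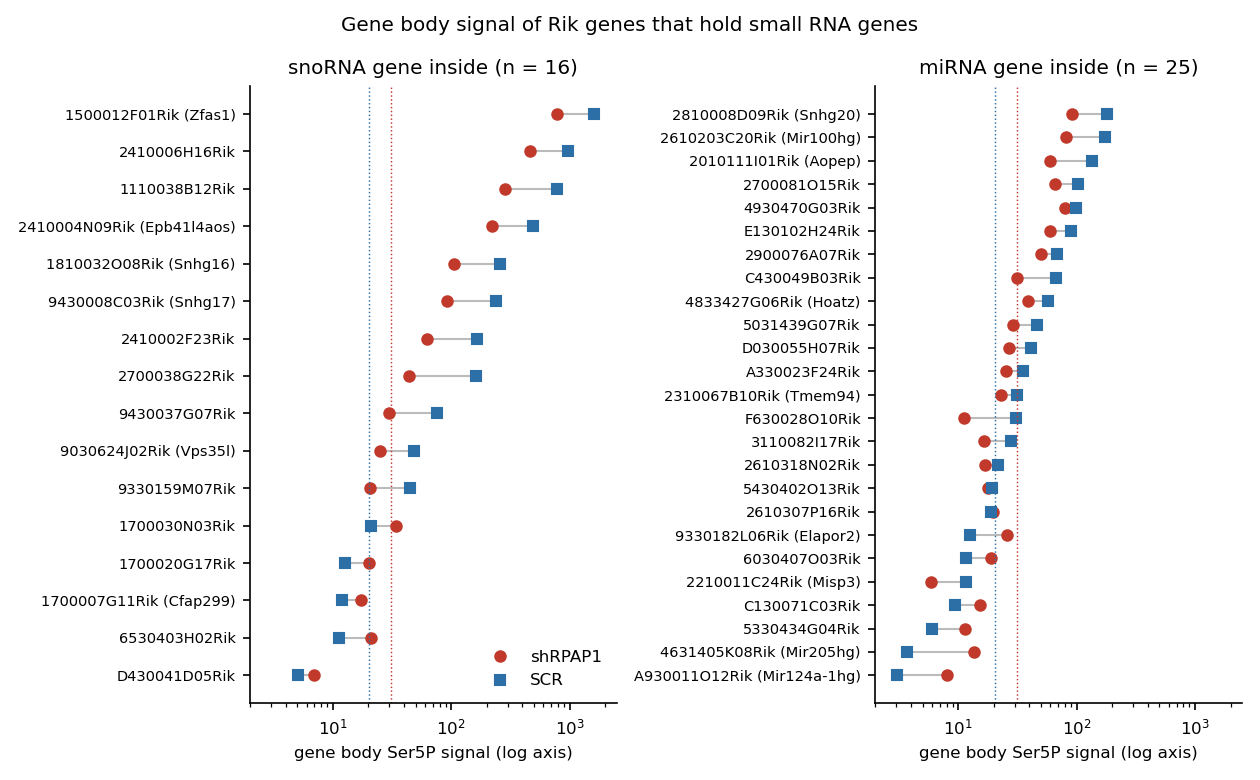
Gene body Ser5P signal (horizontal log axis) of the Rik genes that hold a snoRNA gene (left, 16 genes) or a miRNA gene (right, 25 genes). Red circles are shRPAP1 and blue squares SCR, 1 library each, and dotted lines mark the background percentiles of 31.21 in shRPAP1 and 20.33 in SCR; the circle lies left of the square for hosts well above background and mostly right of it for hosts under the SCR line.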

How the data were processed

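Total Pol II and Ser5P ChIP-seq were analysed in shRPAP1 and SCR fibroblasts, 1 library each. The authors deposited a coverage signal for each gene's promoter and body. Per the submitters' processing notes, GRCm38 (mm10), FastQC, MACS2 2.0.10.20130712, SAMtools 0.1.16 and bedtools 2.23.0 were used; for the aligner, filters, windows and scaling between libraries, the sources used here give nothing. The best of the settings tried was a 330-base promoter window and a body beginning 300 bases after the start. It matched only 27.5% of 1001 bodies without coverage within 0.006. Body read equivalents of 40 bases were derived from it and RefSeq lengths, so body intervals are approximate. Promoter read equivalents came from the step of 0.721.

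Exact repeats were dropped. Background was the 95th percentile of 1760 receptor genes in each library. Ratios used pseudocounts of 0.72 and 0.33, the 5th percentile of all values, and calls a 1.5-fold difference. Single-gene intervals are exact Clopper-Pearson intervals at 95% and cover counting error only; without molecular identifiers reads are not independent molecules. Positions, classes and sequences came from RefSeq on GRCm38.p6, whose annotation may differ from the authors'.

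Named genes were, per region, the 10 highest in SCR, up to 8 lowest and 8 highest ratios among genes above 2 times the percentile in all libraries, the 2 highest of each class, genes covered in 1 condition alone, and the extremes of 4 description groups; small RNA hosts, partner genes, printed windows and counts among genes occupied in SCR were added after values were seen. The members and lists were chosen with earlier results of these data known. Python 3.11.15, pandas 2.3.3, NumPy 2.4.6, SciPy 1.17.1 and matplotlib 3.10.9 were used, and the steps were tested on simulated data.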

Additional observations from a re-analysis of the deposited data

How the results depend on the processing

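No paired analysis was possible because each condition has 1 library per antibody; the study's RNA samples, which share replicate numbers, have no values here. Of the alternative values for the counts of occupied Rik genes, the medians and the counts of genes at least 1.5-fold lower, 37 stayed within the limits set, 44 moved and 3 changed sign. Values follow in the order promoter total Pol II, promoter Ser5P, body total Pol II, body Ser5P. With the all-gene median set to 1 the medians were 0.10, 0.00, 0.00 and 0.06 and the lower counts 256, 261, 123 and 139. With receptor genes set equal the medians were -1.75, -1.56, -1.36 and -1.44, and the body counts 696 and 887. With no filter on low signal the medians were 0.00, 0.00, 0.04 and -0.05. With a filter at 2 times the percentile in both libraries they were -0.62, -0.93, -0.83 and -0.94, and the lower counts 164, 450, 88 and 208. The all-gene medians under that filter were -0.76, -0.95, -0.81 and -0.97. A pseudocount 10 times larger gave -0.61 for body Ser5P. Without genes overlapped in RefSeq the lower counts were 211, 267, 118 and 176 and the occupied counts 320, 349, 240 and 312. Genes still named Rik gave 370 (promoter total Pol II), 238 and 347 (bodies). At a fold of 2 the body counts were 180 and 288. Occupied bodies numbered 451 and 564 at the 99th percentile, 379 and 618 at 2 times the percentile, and 434 and 619 by the shRPAP1 libraries, which gave 536 promoters with total Pol II. The cause was not tested, except that fewer genes enter the stricter and the non-overlapping sets. Depth limits single promoters: 1007 Rik promoters had no read with total Pol II in SCR, and a loss could not be seen there.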
